A study of Mus musculus with 8 samples.

Results

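DNA copy number was examined at 4 loci, Notch1, Fbxw7, Myc and Ikzf1, in lymphomas and a myeloid disorder of mice with SEC31A-JAK2, a fusion gene containing the kinase JAK2. The loci were chosen by position on mouse build mm9: every non-control probe within a fixed window around each gene was taken. This gave 59 of 221455 autosomal probes, with 8 at Notch1, 21 at Fbxw7, 14 at Myc and 16 at Ikzf1. Each of 8 arrays compared genomic DNA of 1 sample, in the Cy5 dye, with normal DNA, in the Cy3 dye, of a wild-type mouse of the Balb/c strain. All sampled mice were Balb/c too and had received a bone marrow transplant. The labels do not name the promoter or vector of the fusion. M7, M9 and M12 were primary tumours, T-lymphoblastic lymphomas (T-LBL), of which M7 and M9 came from spleen and M12 from a lymph node of the neck. The secondary T-LBL, all 4 derived from mouse 12, were 3 from pancreas (M12.52, M12.49 and M12.53) and M12.50, from a lymph node of the neck. The single myeloid hyperplasia, M10, came from bone marrow of a primary transplant. M12 and the 4 secondary lymphomas are called the mouse 12 lineage here, and because they share an origin they are not independent tumours.

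Notch1 encodes a receptor that, once cleaved, enters the nucleus and drives early T-cell development. In T-cell leukaemia and lymphoma of mice and humans it is a recurrent oncogene, and in mice deletions within its 5′ end can remove the normal promoter and leave a truncated, active receptor. Fbxw7 encodes the substrate-recognising subunit of a ubiquitin ligase that marks Notch1 and Myc for degradation. Myc is a growth-promoting transcription factor and a direct target of Notch1, and its chromosome, 15, is often gained in mouse T-cell lymphoma. Ikzf1 encodes Ikaros, a zinc-finger protein that represses Notch target genes in thymocytes and is often lost through deletions inside the gene.

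The Notch1 promoter is shown because it is the part of the gene that such 5′ deletions remove. The sequence is from RefSeq, chr2:26503773-26504072 on the minus strand of GRCm38.p6, and the capitals mark the 50 bases from the start site on. That build differs from the mm9 of the arrays, so this position cannot be set against the probe positions below.

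Notch1 promoter: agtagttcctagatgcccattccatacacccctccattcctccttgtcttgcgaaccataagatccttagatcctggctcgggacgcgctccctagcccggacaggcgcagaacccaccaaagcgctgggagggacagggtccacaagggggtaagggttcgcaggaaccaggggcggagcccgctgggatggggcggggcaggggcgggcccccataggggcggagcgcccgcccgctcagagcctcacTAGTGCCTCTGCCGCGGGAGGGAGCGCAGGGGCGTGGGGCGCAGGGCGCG

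In this promoter 68.3% of bases were G or C, against a median of 52.7% over 32851 RefSeq promoters of the same length. The heptamer CACAGTG is only a part of the recombination signal bound by the RAG recombinase. It was absent from these 300 bases on both strands (CACTGTG on the other strand), and 6.81% of all promoters held it. This says only that these letters are not in this window.

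The arrays differed in quality, and each value at the 4 loci carries that difference. Probe-to-probe noise of the log2 ratio (SD) was 0.47 on M7, 0.43 on M12.52 and 0.22 to 0.28 elsewhere. On M7 only 53.8% of reference spots were well above background, while the share was 98.4% or more elsewhere. Arrays that shared a slide identifier were scanned on different days: M12.50 before M9, M10 before M7, and M12.53 before M12.52. The array of M12.53 correlated negatively over autosomal probes with 6 of the 7 others (r = -0.32 to -0.51 with 5 of them and -0.21 with M9), although the labels give the same dye orientation to all 8. Its direction was kept as labelled, because it shared the losses of its lineage. A region of chromosome 14 (chr14:54345365-54757699) averaged -2.61 in M12.53 and -2.44 to -3.26 in the rest of the lineage. The same region averaged -0.73 in M7, -0.52 in M9 and -0.06 in M10. A region of chromosome 12 (chr12:107408625-109195143) averaged -0.79 in M12.53 and -0.63 to -0.91 in the rest of the lineage, against -0.08 to 0.06 in M7, M9 and M10. These regions, picked from earlier results of the same arrays, show how far the log2 ratio moved at a loss here. The chromosome 14 values of the lineage lie beyond the -1 of a 1-copy loss in all cells. Only the chromosome 12 region is therefore set against the loci below. What caused either loss was not tested.

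The spacing of the probes sets what could be seen at each locus. At Notch1 (chr2:26300000-26375000) neighbouring probes lay a median of 9.72 kb apart, and the largest gap, 11.7 kb, fell between probes 5 and 6. At Fbxw7 (chr3:84600000-84800000) the median gap was 8.98 kb and the largest 18.3 kb. At Myc (chr15:61750000-61900000) the median gap was 7.35 kb, with 26.1 kb between probes 1 and 2. Ikzf1 (chr11:11570000-11690000) was the most densely covered, with a median gap of 6.21 kb and a largest of 13.2 kb. Over all autosomes the median spacing was 7.82 kb. Probes are numbered here by rising position on the chromosome. Exon and intron positions of the probes were not analysed here, since no annotation on mm9 was at hand. In RefSeq on GRCm38.p6, the nearest protein-coding neighbours were Sec16a and Egfl7 for Notch1, Tmem154 and Gatb for Fbxw7, A1bg and Gsdmc for Myc, and 4930512M02Rik and Fignl1 for Ikzf1.

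A deletion of 5 kb, placed at every position within the window in turn, would cover at least 1 probe at 56.5% of positions at Notch1. The share was 50.4% at Fbxw7, 47.0% at Myc and 65.4% at Ikzf1, and at the remaining positions no probe would see the deletion. A deletion of 10 kb would cover 3 or more probes at 0% of positions at Notch1 and Ikzf1, 1.35% at Fbxw7 and 0.812% at Myc. At 20 kb the shares with 3 or more probes were 26.9% at Notch1, 23.9% at Fbxw7, 33.3% at Myc and 57.5% at Ikzf1. At 50 kb they were 100% at all 4 loci. At Notch1, a 20 kb deletion would therefore rest on only 2 probes at most positions.

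**Figure D1:**
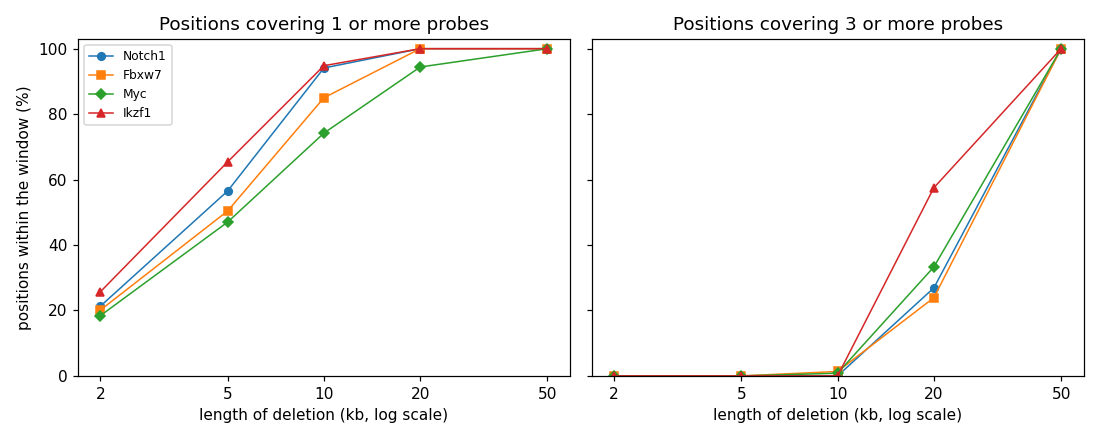
Share of positions within each locus (y axis, percent) at which a deletion of a given length (x axis, kb, log scale) would cover at least 1 probe (left) or at least 3 probes (right). At 5 kb the share with at least 1 probe was 47.0% to 65.4%, and at 50 kb every position covered at least 3 probes.

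On no array did the mean over any of the 4 loci reach the level of a gain or loss of 1 copy in all cells. Loss of 1 of 2 copies in every cell gives a log2 ratio of -1, and a gain to 3 copies gives 0.58. The mean of a locus's probes, with its 95% interval over those probes, was computed for the 32 pairs of locus and array. Of these intervals 0 held -1 and 0 held 0.58, and their bounds ran from -0.67 to 0.46. The intervals cover the spread between probes only, since no DNA was hybridised again. A smaller shift in a bulk DNA can mean fewer altered cells or a smaller change per cell, and these cannot be told apart. Of the 20 intervals of the mouse 12 lineage, 1 reached as low as its own array's chromosome 12 loss, that of Notch1 in M12.52 (-0.67 to 0.18).

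**Figure D2:**
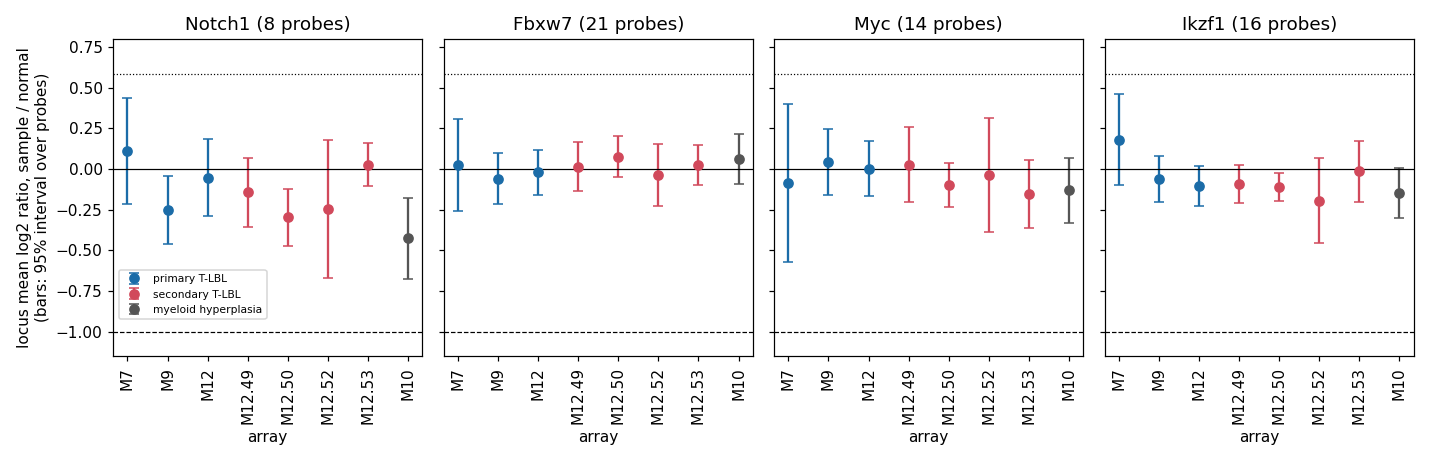
Mean log2 ratio of sample over normal DNA (y axis) at each locus on each of the 8 arrays (x axis), with bars for the 95% interval over the locus's probes and colours for the 3 groups. The dashed line at -1 marks loss of 1 copy in all cells and the dotted line at 0.58 gain of 1 copy; all intervals lie between -0.67 and 0.46, and the lowest mean from the authors' processed signals is that of Notch1 in the myeloid M10 (with normexp, that of Notch1 in M12.50).

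At Notch1 the locus mean was 0.11 in M7, -0.25 in M9 and -0.05 in M12 among primary lymphomas. Among secondary lymphomas it was -0.30 in M12.50, -0.14 in M12.49, 0.03 in M12.53 and -0.25 in M12.52. The lowest value of all, -0.43 with a 95% interval of -0.67 to -0.18, belonged to M10, the myeloid sample. Of the 8 intervals 3 lay wholly below 0, those of M9 (-0.46 to -0.04), M12.50 (-0.47 to -0.12) and M10. In M10 only 0.0646% of autosomal stretches of 8 consecutive probes were at or below its Notch1 mean, against 0.972% in M12.50 and 3.81% in M9. The surrounding 1 Mb on either side had medians of -0.10 in M9, -0.10 in M10 and -0.12 in M12.50. From the authors' processed signals, the receptor locus was thus lowest in the non-lymphoid sample, and M7 and M12.53 lay above 0. This order changed with the processing. With normexp background correction the lowest means were -0.38 in M12.50 and -0.35 in M12.53, ahead of -0.30 in M10. With probes well above background in both dyes, M7 was at -0.10.

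The lowest stretch within Notch1 was its probes 4 to 6 (chr2:26332737-26350155). Their mean was 0.06 in M7, -0.28 in M9, -0.18 in M12, -0.42 in M12.50, -0.35 in M12.49, -0.79 in M12.52, 0.20 in M12.53 and -0.65 in M10. M12.52 and M10 were the low samples, M7 and M12.53 were above 0, and the remaining lymphomas lay between. With normexp the lowest means were -0.49 in M12.50, -0.43 in M10, -0.40 in M12.53 and -0.33 in M12, and M12.52 was at -0.30, so the order of the samples was not kept. From the authors' processed signals, in M12.52, 0.436% of autosomal runs of 3 probes were as low, and in M10 0.0696%. The 3 probes were well above background in the reference on every array except M7, where 2 were. In the tumour DNA 2 of the 3 were well above background in M12.52 and in M9, and all 3 on the other arrays.

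Probe 5 (chr2:26338301-26338360) had the lowest median over the lymphomas at this locus. Its log2 ratio was 0.10 in M7, -0.20 in M9, -0.48 in M12, -0.53 in M12.50, -0.50 in M12.49, -1.18 in M12.52, 0.18 in M12.53 and -0.78 in M10. Within the lineage M12.53 stood apart from the other 4 at this probe. Probe 2 (chr2:26314814-26314873), the next lowest, was -0.21 in M12, -0.60 in M12.50, -0.30 in M12.49, 0.06 in M12.52, -0.22 in M12.53 and -0.63 in M10. Here M12.52 was not low, unlike at probe 5. Probe 8 (chr2:26367601-26367660), the highest, ranged from -0.35 in M9 to 0.88 in M7. Probe 3 (chr2:26321362-26321421), picked after its values were seen, was below 0 on all 8 arrays, from -0.41 in M7 to -0.02 in M12.53. The share of all autosomal probes below 0 on all 8 arrays was not computed, so this is a description only.

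Across the genome the lymphoma arrays followed the probe pattern of M10 with slopes of 0.42 in M9, 0.53 in M12, 0.67 in M12.50, 0.62 in M12.49 and 1.01 in M12.52. The slopes were -0.30 in M7 and -0.43 in M12.53. When the M10 value times this slope was subtracted from each probe, the mean of Notch1 probes 4 to 6 became 0.16 in M12, 0.05 in M12.49, -0.01 in M9 and -0.13 in M7. It became 0.02 in M12.50, -0.08 in M12.53 and -0.14 in M12.52. After subtraction all 7 lymphomas lay between -0.14 and 0.16, and M12.52 no longer stood apart. At probe 5 alone, M12.53 was then -0.16, between -0.40 in M12.52 and -0.01 in M12.50. The subtraction was chosen after the data were seen, and it would also remove any change at Notch1 that M10 itself carried.

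**Figure D3:**
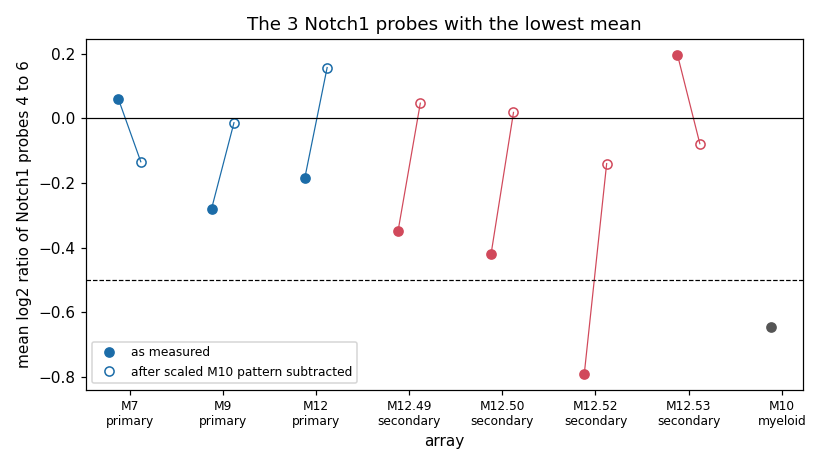
Mean log2 ratio of Notch1 probes 4 to 6 (y axis) on each array (x axis, with its group), as measured (filled) and, for the 7 lymphomas, after subtracting M10 scaled by each array's slope (open). The dashed line marks -0.5; M12.52 at -0.79 and M10 at -0.65 lie below it as measured, and all 7 open points lie between -0.14 and 0.16.

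At Fbxw7 the locus means were close to 0 on every array. They were 0.02 in M7, -0.06 in M9 and -0.02 in M12. In the secondary lymphomas they were 0.08 in M12.50, 0.01 in M12.49, 0.03 in M12.53 and -0.04 in M12.52, and the myeloid M10 had 0.06. All 8 intervals held 0. Its lowest stretch on any array was probes 5 to 7 (chr3:84649818-84675605) in M9, at -0.60, where 0.916% of autosomal runs of 3 probes were as low. The same probes averaged -0.02 in M12, 0.15 in M12.50, -0.19 in M12.49, -0.16 in M12.52, -0.11 in M12.53, -0.10 in M10 and 0.57 in M7, so the low was seen in M9 and in no other sample. It rested largely on probe 6 (chr3:84657212-84657271), at -1.26 in M9, and in M9 1 of the 3 probes was not well above background in the tumour DNA. With normexp background correction the M9 value was -0.08.

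Probe 19 of Fbxw7 (chr3:84775449-84775508) was -0.44 in M9, -0.58 in M12, -0.47 in M12.50, -0.83 in M12.49, -1.08 in M12.52 and -0.68 in M10. It was 0.25 in M7 and 0.70 in M12.53. Low values were therefore shared by 5 of 7 lymphomas and the myeloid sample, and M12.53 and M7 were on the other side of 0. Of these lymphomas all but M9 belong to the mouse 12 lineage. After scaled M10 subtraction the probe was -0.16 in M9, -0.22 in M12, -0.01 in M12.50, -0.41 in M12.49 and -0.39 in M12.52. It was then 0.04 in M7 and 0.41 in M12.53. Probe 10 (chr3:84711546-84711605), the highest at this locus, lay between 0.11 in M12 and 0.66 in M12.50 except in M7, at -1.09.

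At Myc the locus means were -0.08 in M7, 0.04 in M9 and 0.00 in M12. They were -0.10 in M12.50, 0.03 in M12.49, -0.04 in M12.52, -0.15 in M12.53 and -0.13 in M10. None of the 8 was near the 0.58 of a 1-copy gain, and the highest upper bound, 0.40, belonged to the noisy M7. These means include probe 2, which was not well above background in either dye on any array. With only probes well above background in both dyes, the mean was -0.39 in M7, -0.05 in M9 and -0.05 in M12.49. The sign changed in M9 and M12.49 and was kept on the other arrays. The median of all chromosome 15 probes lay between -0.006 in M12.53 and 0.0145 in M12, so a gain of the whole chromosome was not seen in any sample either. Segmentation placed Myc in a segment that spanned chromosome 15 from its first to its last probe on all 8 arrays, with means of -0.03 in M9 to 0.07 in M7.

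The first 3 probes of the Myc window (chr15:61759257-61795114) averaged -0.57 in M7 and -0.57 in M12.53. The same stretch averaged 0.41 in M9, 0.05 in M12, -0.06 in M12.50, 0.44 in M12.49, 0.25 in M12.52 and 0.02 in M10. Of all autosomal runs, 2.53% were as low in M7 and 0.202% in M12.53. With normexp the mean was -0.055 in M7 and -0.56 in M12.53. Probe 2 (chr15:61785410-61785469), at -2.04 in M7 and -0.81 in M12.53, was not well above background in either dye on any of the 8 arrays. The same probe was 1.21 in M9, 0.99 in M12.49 and 1.16 in M12.52, so the high means of this stretch there rest partly on it. Its neighbours, probes 1 and 3, were -0.47 and 0.80 in M7 and -0.52 and -0.36 in M12.53. In M12.53 both were low, and in M7 they lay on opposite sides of 0.

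Probe 1 (chr15:61759257-61759316) was also the highest at the locus by its median over the lymphomas. It was 0.66 in M12, 0.36 in M12.50, 0.46 in M12.49, 0.82 in M12.52 and 0.58 in M10, against 0.05 in M9. The lowest, probe 3 (chr15:61795055-61795114), ranged from -1.24 in M12.52 to 0.80 in M7, with -0.37 in M10.

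At Ikzf1 the locus means were 0.18 in M7, -0.06 in M9 and -0.10 in M12. They were -0.11 in M12.50, -0.09 in M12.49, -0.19 in M12.52, -0.01 in M12.53 and -0.15 in M10. All values except that of M7 were below 0, and 1 interval excluded 0, that of M12.50 (-0.20 to -0.03). In M12.50, 17.0% of autosomal stretches of 16 probes were as low, so the value was common on that array.

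Within Ikzf1 the lowest stretch was probes 10 to 12 (chr11:11645722-11661393) in M12.52, at -0.56, where 2.74% of autosomal runs were as low. The same probes averaged -0.06 in M9, -0.25 in M12, -0.01 in M12.50, -0.21 in M12.49, 0.29 in M12.53, -0.20 in M10 and 0.60 in M7. With normexp the value was -0.16 in M12.52, and -0.50 in M12.53. From the authors' processed signals, the highest and the lowest stretch of the locus were the same 3 probes in different samples. In M7 none of these 3 reference spots was well above background.

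Probe 8 of Ikzf1 (chr11:11626123-11626181) was -0.77 in M9, -0.45 in M12, -0.52 in M12.50, -0.33 in M12.49, -0.93 in M12.52 and -0.72 in M10. It was 0.17 in M7 and 0.35 in M12.53. Probe 15 (chr11:11682640-11682699) was -0.48 in M9, -0.41 in M12, -0.18 in M12.50, -0.55 in M12.49, -1.29 in M12.52 and -0.65 in M10, with 1.01 in M7 and 0.30 in M12.53. Both probes were low in the same 6 samples, the myeloid one included. Each was a single probe: the neighbours of probe 8 were 0.34 and -0.05 in M12.52, and those of probe 15 were -0.17 and 0.13. After scaled M10 subtraction probe 8 was -0.47 in M9, -0.06 in M12, -0.03 in M12.50, 0.11 in M12.49 and -0.20 in M12.52. Probe 15 was then -0.21, -0.06, 0.25, -0.15 and -0.64 in the same order. In M7 and M12.53 the values were -0.04 and 0.04 at probe 8, and 0.81 and 0.03 at probe 15.

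**Figure D4:**
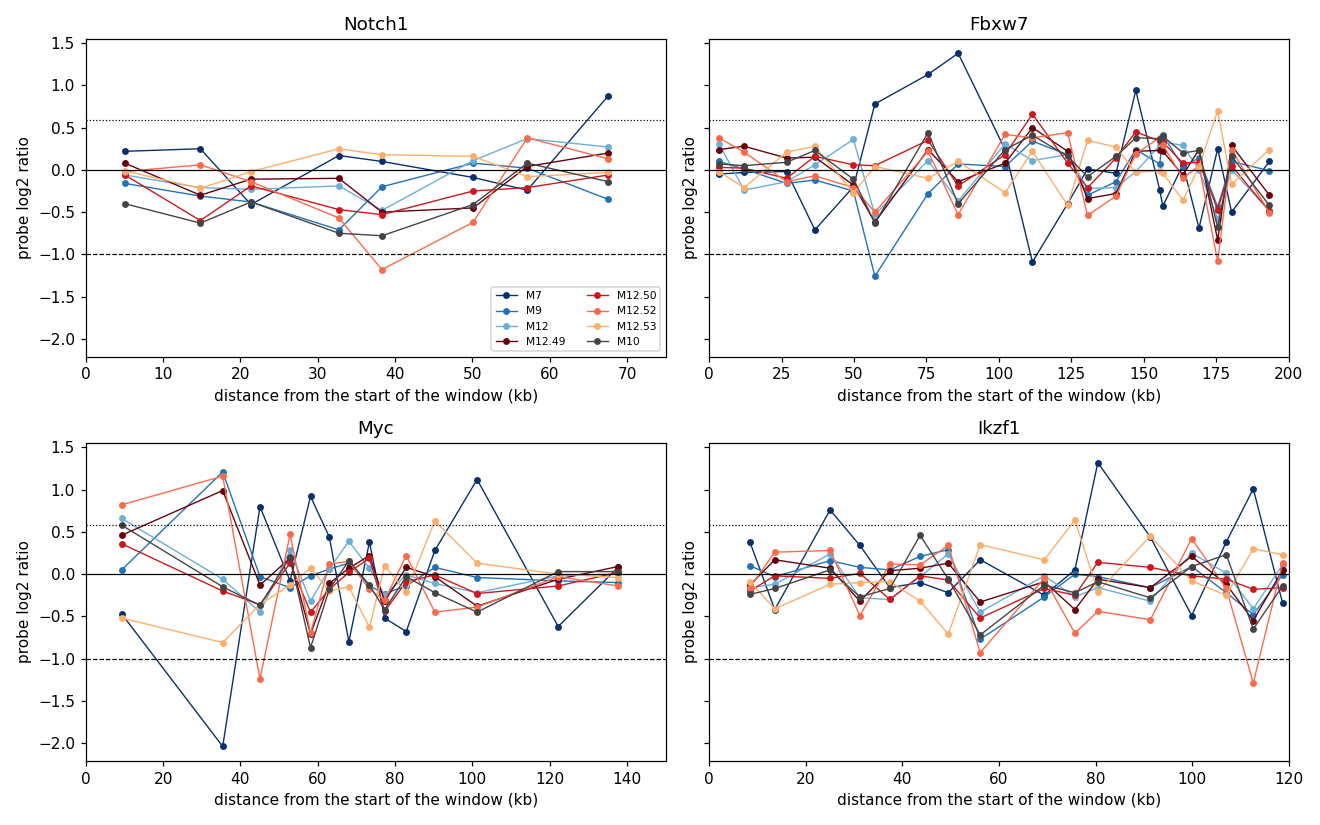
Log2 ratio of every probe (y axis) against its distance from the start of the window (x axis, kb) at the 4 loci, with 1 line per array. The dashed line marks -1 and the dotted line 0.58; the widest spread is on M7 and M12.52, and at Notch1 M10 lies between -0.78 and -0.38 at probes 1 to 6.

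Counted over the 4 loci, 11 of 408 runs of 3 consecutive probes averaged -0.5 or less. Notch1 held 5 of them, 3 in M10 and 2 in M12.52. Fbxw7 had 2 in M9, Myc 1 each in M7 and M12.53, and Ikzf1 2 in M12.52. Over the whole genome such runs made up 0.540% of all runs in M10, 4.25% in M12.52, 1.53% in M9, 3.61% in M7 and 0.287% in M12.53. They made up 0.228% in M12, 0.307% in M12.50 and 0.481% in M12.49, which had none at the loci. At the loci they were 3 of 51 in M10, 4 of 51 in M12.52, 2 of 51 in M9 and 1 of 51 in M7 and in M12.53. Neighbouring runs share probes, so these are few independent places. Runs at 0.5 or more numbered 5, all in M7, where 8.07% of all runs were as high. On the arrays with none at the loci, the share over all runs was 0.455% in M9, 0.309% in M10, 0.254% in M12, 0.103% in M12.50, 0.166% in M12.49, 0.256% in M12.53 and 1.70% in M12.52. Fbxw7 held 3 of the 5, with the highest at probes 6 to 8 (chr3:84657212-84685992), and there none of the 3 reference spots was well above background.

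After the scaled M10 pattern was subtracted, 3 low runs were left in the lymphomas: those at Myc in M7 and M12.53, and 1 at Fbxw7 in M9. Over the whole genome the share of such runs was then 3.63% in M7, 0.272% in M12.53 and 1.27% in M9. The remaining lymphomas had none at the loci, and the genome-wide share was 0.162% in M12, 0.285% in M12.49 and 1.59% in M12.52. In M12.50 it was 332 of 221294 runs.

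Single probes were split differently over the arrays. M10 and M12.53, which held low runs, had no locus probe at -1 or less. Over all autosomal probes 0.161% in M10 and 0.122% in M12.53 were that low. Of 472 probe values 7 were at -1 or less and 7 at 1 or more, and M7 and M12.52 supplied 6 of the 7 low and 6 of the 7 high ones. Over all autosomal probes of M7, 1.80% were at -1 or less and 5.16% at 1 or more. The shares were 2.20% and 0.536% in M12.52, and 0.876% and 0.486% in M9, which supplied the remaining value on each side. M7, M12.52 and M9 were each the later scanned array of a shared slide identifier. Whether the scan played a part was not tested.

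Whether the loci changed between primary and secondary lymphomas was tested on the locus means with a two-sided exact permutation test. With 3 primary and 4 secondary arrays there are 35 splits, and the smallest p possible is 0.0286. All 4 secondary lymphomas derive from mouse 12, whose tumour M12 is among the primaries. The test treats the arrays as independent, which they are not. Notch1 averaged -0.06 ± 0.18 (SD, n = 3) in primary and -0.16 ± 0.14 (SD, n = 4) in secondary lymphomas, a difference of -0.10 (exact permutation p = 0.457). Fbxw7 averaged -0.02 ± 0.04 and 0.02 ± 0.05, a difference of 0.04 (exact permutation p = 0.314). Myc averaged -0.01 ± 0.06 and -0.06 ± 0.08, a difference of -0.05 (exact permutation p = 0.400). Ikzf1 averaged 0.00 ± 0.15 and -0.10 ± 0.07, a difference of -0.11 (exact permutation p = 0.314). The groups overlapped at all 4 loci, and the differences did not exceed the spread between arrays. Without M7 the difference was -0.01 at Notch1 and -0.02 at Ikzf1. With the sign of M12.53 turned the differences were -0.11 at Notch1, 0.03 at Fbxw7, 0.02 at Myc and -0.10 at Ikzf1, so Myc changed direction. Within the pair of arrays on slide 2, M12.50 and M9, the differences were -0.04, 0.13, -0.14 and -0.05 in the same order. That pair shared a slide identifier but not a scan day. Among arrays of scan 3 (M9, M12.49 and M12.52) they were 0.06, 0.05, -0.05 and -0.08, again in that order, so Notch1 changed direction there.

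Windows of 10 consecutive probes were also fitted across all autosomes with limma, and 10 of them overlapped the loci. After Benjamini-Hochberg adjustment over 22135 windows, none of the 10 passed the threshold in secondary lymphomas against the reference, where 0.145% of all windows did. None passed in primary lymphomas against the reference (0.00452% of all), between secondary and primary lymphomas (0% of all) or between primary lymphomas and M10 (0% of all). At an unadjusted p under 0.05 the counts were 0 of 10 in the first 3 of these contrasts. In primary lymphomas against M10 it was 1 of 10, a Notch1 window (chr2:26338301-26438066) that was 0.33 ± 0.15 (SE) higher in primary lymphomas (limma adjusted p = 1). Over all 22135 windows, 1088, 799 and 331 were at that level in the first 3 contrasts and 174 in primary lymphomas against M10. The primary and secondary arrays overlapped in all 10 windows, while they did not overlap in 2.39% of all windows.

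Single probes were fitted in the same way, since a window can hide a loss of 1 or 2 probes. Of the 59 locus probes 0 passed in any of the 4 contrasts with limma after adjustment over 212081 probes. The fit compares group means, so a loss in 1 lymphoma is averaged with the others of its group. In secondary lymphomas against the reference, the Notch1 probe at chr2:26338301-26338360 was -0.51 ± 0.19 (SE; limma adjusted p = 0.784). The smallest loss that would pass was not computed. The 0 of 59 therefore does not exclude a loss of 1 or 2 probes. Secondary lymphomas against the reference had 0.0269% of all probes called, and the other contrasts 0%. At an unadjusted p under 0.05 the locus probes numbered 0 between secondary and primary lymphomas, 3 in primary and 2 in secondary lymphomas against the reference, and 1 in primary lymphomas against M10. In the same order, 2109, 8988, 9658 and 1091 of the 212081 probes were at that level. With array weights in limma, 9 of 10 windows and 59 of 59 probes were called in secondary lymphomas against the reference, but so were 85.9% of all windows and 93.8% of all probes.

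No called segment touched any of the 4 loci on any array. A call needed 5 or more probes and a mean of at least 0.25 away from 0. A deletion of 20 kb within the window would cover 5 or more probes at 0% of positions at Notch1, Fbxw7 and Ikzf1. At Myc it would do so at 0.623% of positions. The absence of calls therefore says almost nothing about losses of 20 kb or less inside these loci. The penalty on each added segment grows with the noise of the array and is highest on M7 and M12.52. It raises the number of probes that a call needs further. The smallest loss that would be called at these loci was not computed, so longer losses are not excluded by the absence of calls either. The share of all autosomal probes inside calls was 0.00813% in M10, 0.0910% in M7, 0.0777% in M9 and 0.318% in M12. It was 0.130% in M12.50, 0.208% in M12.49, 0.309% in M12.53 and 0.191% in M12.52. The segments that held the 4 loci had means between -0.06 and 0.09. The shortest of them, around Fbxw7 in M12, had 3126 probes, so none was specific to a locus.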

How the data were processed

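Genomic DNA of 8 samples was measured on Agilent mouse arrays for comparative genomic hybridisation, 1 array per DNA. The deposited files hold the processed intensities of Cy5 and Cy3. Background subtraction and a linear dye normalisation were done in Feature Extraction 10.5.1.1, per the file headers, while the submitters' processing notes name version 9.1.1. The deposited log10 ratio column and the series table hold the same log10 values. Positions are mm9 in 7 files; M12 (mm8) took mm9 positions by probe name, and no coordinate was converted. From these, log2 of Cy5 over Cy3 was computed, control and outlier spots were left out, replicate spots were averaged, and the autosomal median of the array was subtracted. The probe number and the number of arrays limit the precision.

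The 4 loci, the lists, the loss regions and the rules were chosen with earlier results of these data known. Named within each locus were the 2 lowest and 2 highest probes by median over the lymphomas, the lowest and highest runs, recurrent runs and the largest gap; exceptions are marked. Other genes of the Notch pathway were not analysed here, as no mm9 annotation was used. Locus intervals use the t distribution over probes (95%). Windows of 10 probes and single probes were fitted with limma (lmFit, eBayes; 3 groups, all 8 arrays, adjusted p threshold 0.05), with M10, the single myeloid array, assumed to vary like the other groups. Segmentation was by penalised least squares on winsorised values (limit 3 SD from a median over 11 probes), and the penalty was the noise variance times 6 times the log of the number of probes. The p-values measure the spread between these arrays, and the mouse 12 arrays are related. Normexp (offset 50) ran on median signals. Scripts were tested on simulated data. For the segmentation these held altered stretches with more probes than Notch1, Myc or Ikzf1, at a noise below that of M7 and M12.52. That test therefore does not cover short losses or the noisy arrays. The fits ran in limma 3.58.1 (R 4.3.3), and the rest in Python 3.11.15 with scipy 1.17.1, pandas 2.3.3, numpy 2.4.6, numba 0.67.0 and matplotlib 3.10.9.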

Additional observations from a re-analysis of the deposited data

How the results depend on the processing

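No paired analysis was possible because the labels give no replicate numbers to pair the groups by, and the numbers used here follow accession order. Slide, scan and mouse of origin were fitted as random blocks in its place, with 0 locus windows called. The loci held no called segment under any setting, and no window or probe of them was called in limma except with array weights in secondary lymphomas against the reference. There 9 of 10 windows and 59 of 59 probes were called, beside 85.9% of all windows and 93.8% of all probes. That fit did not converge, and on windows it gave M12.49 a weight of 89.39, against 0.1284 to 6.637 for the other arrays. Over all autosomes, the called windows numbered 598 with normexp in primary lymphomas against the reference (1 in the main setting) and 23 between secondary and primary lymphomas without M12 (0 in the main setting). In secondary lymphomas against the reference they numbered 19 with normexp, 11 with origin as a block and 0 with the sign of M12.53 turned (32 in the main setting).

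The secondary minus primary difference reversed at Notch1 after scaled M10 subtraction (0.0097) and within scan 3 (0.058). At Fbxw7 it reversed with centring on the mode (-0.0141) and with normexp (-0.0701), and was 0.1347 within slide 2. At Myc it reversed with probes well above background in both dyes (0.0773) and with the sign of M12.53 turned (0.025), and was -0.1407 within slide 2. At Ikzf1 it reversed with the first scan of each slide (0.0317). The cause of these reversals was not tested. Leaving out 1 array gave -0.1933 to -0.0124 at Notch1, 0.0186 to 0.0594 at Fbxw7, -0.0864 to -0.0217 at Myc and -0.1613 to -0.0198 at Ikzf1. The count of low runs, 11 in the main setting, was 48 at a threshold of -0.3, 0 at -1, 24 with runs of 2 probes, 3 with runs of 5 probes and 2 with normexp. It was 3 after scaled M10 subtraction on the 7 lymphomas, at Myc in M7 and M12.53 and at Fbxw7 in M9. With normexp the mean of Notch1 probes 4 to 6 in M12.53 was -0.40, against 0.20 in the main setting. Scaled M10 subtraction, the turned sign of M12.53, the first scan of each slide and scan as a block were added after the data were seen. Of the 32 locus means, 22 moved with normexp by less than the SD of their group (for M10, the reach of its interval) and 10 by more. Plain M10 subtraction moved 25 of 28 lymphoma means by more and scaled subtraction 13 of 28. With plain subtraction the Notch1 mean was above 0 in all 7 lymphomas, from 0.13 in M12.50 to 0.52 in M7.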

Other observations

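Over the 59 locus probes, the probe pattern of the myeloid M10 correlated with that of M9 at r = 0.47, of M12 at 0.73, of M12.49 at 0.71, of M12.50 at 0.81 and of M12.52 at 0.71. Over 212081 autosomal probes the same pairs gave 0.41, 0.59, 0.67, 0.78 and 0.68. The correlation with M10 was -0.33 in M7 and -0.36 in M12.53 over the locus probes, and -0.17 and -0.46 over the autosomes. These describe probes, which share an array, its labelling and base composition, and are not replicates.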
